A study of Mus musculus with 6 samples.

Results

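Interferon-induced transcripts were compared between normal duodenum of Apc+/-Atg7-/- mice and of Apc+/- mice. The set comprises RNA sensors, the type I interferon receptor and its transcription factors, stimulated genes outside the Oas, Ifit, Mx and GTPase families, and Sass6, a centriole gene listed with them. A gene belonged to it where a probe set of the array named that gene alone, and the brightest probe set over the 6 arrays stood for a gene with several. Of 41 listed genes 39 were measured, among 19938 genes in all. Isg15, named only on a probe set that also names another gene, and Ifi44 were not analysed here. Both genotypes were on a C57Bl6 background and both carried the Apc+/- allele, with 3 arrays each. Apc restrains Wnt signalling, and Atg7 is an enzyme that autophagy needs. The labels give no age, treatment, sex or housing, and do not say in which cells Atg7 was deleted or whether animals were pooled.

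Interferons are secreted when a cell senses foreign or misplaced nucleic acid. RIG-I-like receptors bind RNA in the cytosol and signal through the mitochondrial protein Mavs to Irf3 and Irf7, which switch on interferon genes. Secreted type I interferon binds the Ifnar1 and Ifnar2 chains, and a complex that includes Stat2 and Irf9 then carries the signal to the promoters of stimulated genes. In the intestine the epithelium also responds to type III interferon, which reaches the same transcription factors through another receptor.

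All values are the deposited signals on the log2 scale, where a difference of 1 is a 2-fold change. Array medians lay between 6.43 and 6.56, and pairs of arrays correlated at 0.989 to 0.994 over all probe sets. The Atg7 probe set read 7.05, 7.17 and 7.27 in Apc+/- replicates 1 to 3 and 6.46, 6.65 and 6.78 in Apc+/-Atg7-/- replicates 1 to 3. Its difference of -0.53 (SE 0.11) did not pass over all genes (limma adjusted p = 0.242). Apc+/-Atg7-/- replicate 1 stood apart as the array of a male, with an Xist signal of 4.58 against 10.1 to 10.27 on the other arrays. Markers of duodenal epithelium averaged 10.34 to 10.57 in Apc+/- and 10.40 to 10.54 in Apc+/-Atg7-/- arrays (16 genes).

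The 39 genes had a median difference of 0.39 between Apc+/-Atg7-/- and Apc+/- duodenum (0.38 over the 38 without Sass6), against -0.02 over all genes. The interferon genes Ddx60, Herc6, Xaf1, Rtp4 and Phf11d, and Sass6, rose in Apc+/-Atg7-/- past an adjusted p of 0.05 (limma, Benjamini-Hochberg over all genes). These are 6 of 39 (5 of 38 without Sass6), where 0.0702% of all genes passed in that direction. The members were chosen with earlier results of these data known, so the shares here describe the set and are not a test of it. No member fell by limma, where 0.0401% of all genes did, and 0 members were lower at an unadjusted p under 0.05, against 2.73% of all genes. At that unadjusted level 25 members were higher, against 2.38% of all genes, and 36 had a difference above 0, against 43.2%. At an adjusted p of 0.10, which adds Samd9l and Dhx58, 8 members were higher, against 0.0903% of all genes. All 3 Apc+/-Atg7-/- arrays lay above all 3 Apc+/- arrays for 27 members, against 4.81% of all genes, and below them for 1 member, Ifnar2, against 5.23%. These shares of all genes also apply to the counts by role and by gene list below.

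**Figure D1:**
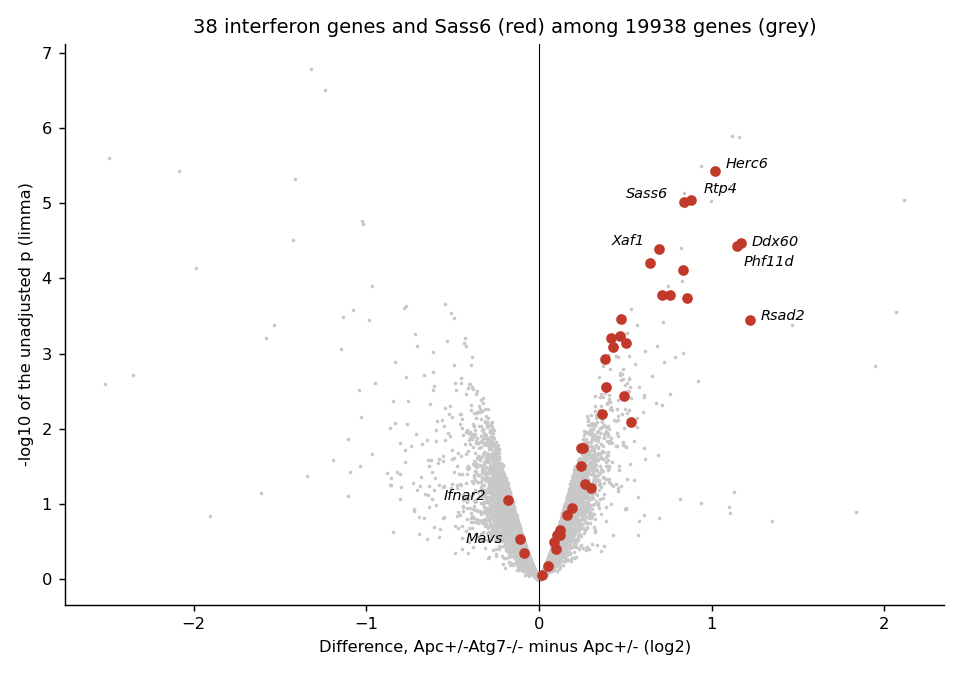
Each point is a gene, placed by its difference between the genotypes (x axis, log2) and by the −log10 of limma's unadjusted p (y axis), with the 38 interferon genes and Sass6 in red and all other genes in grey. Of the red points, 36 lie to the right of 0 and 3 to the left, and Rsad2 has the widest difference among them (1.22) without having the smallest p.

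The number of genes that passed depended on single arrays, over all genes as well as among the members. Without Apc+/- replicate 1, 2 or 3, limma called 2, 3 and 2 members higher, among 6, 8 and 6 of all genes. Without Apc+/-Atg7-/- replicate 2 it called 6, of which 4 are among the 6 named above, among 16 of all genes, and without replicate 3 it called 1 among 6. Without the male array limma called 0 members and 0 of all genes higher. In that fit 24 members were higher at an unadjusted p under 0.05, against 2.73% of all genes, and 35 were above 0, against 45.7%. The median difference of the 39 genes moved less, between 0.36 and 0.42 over these fits, and was 0.37 without the male array.

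**Figure D2:**
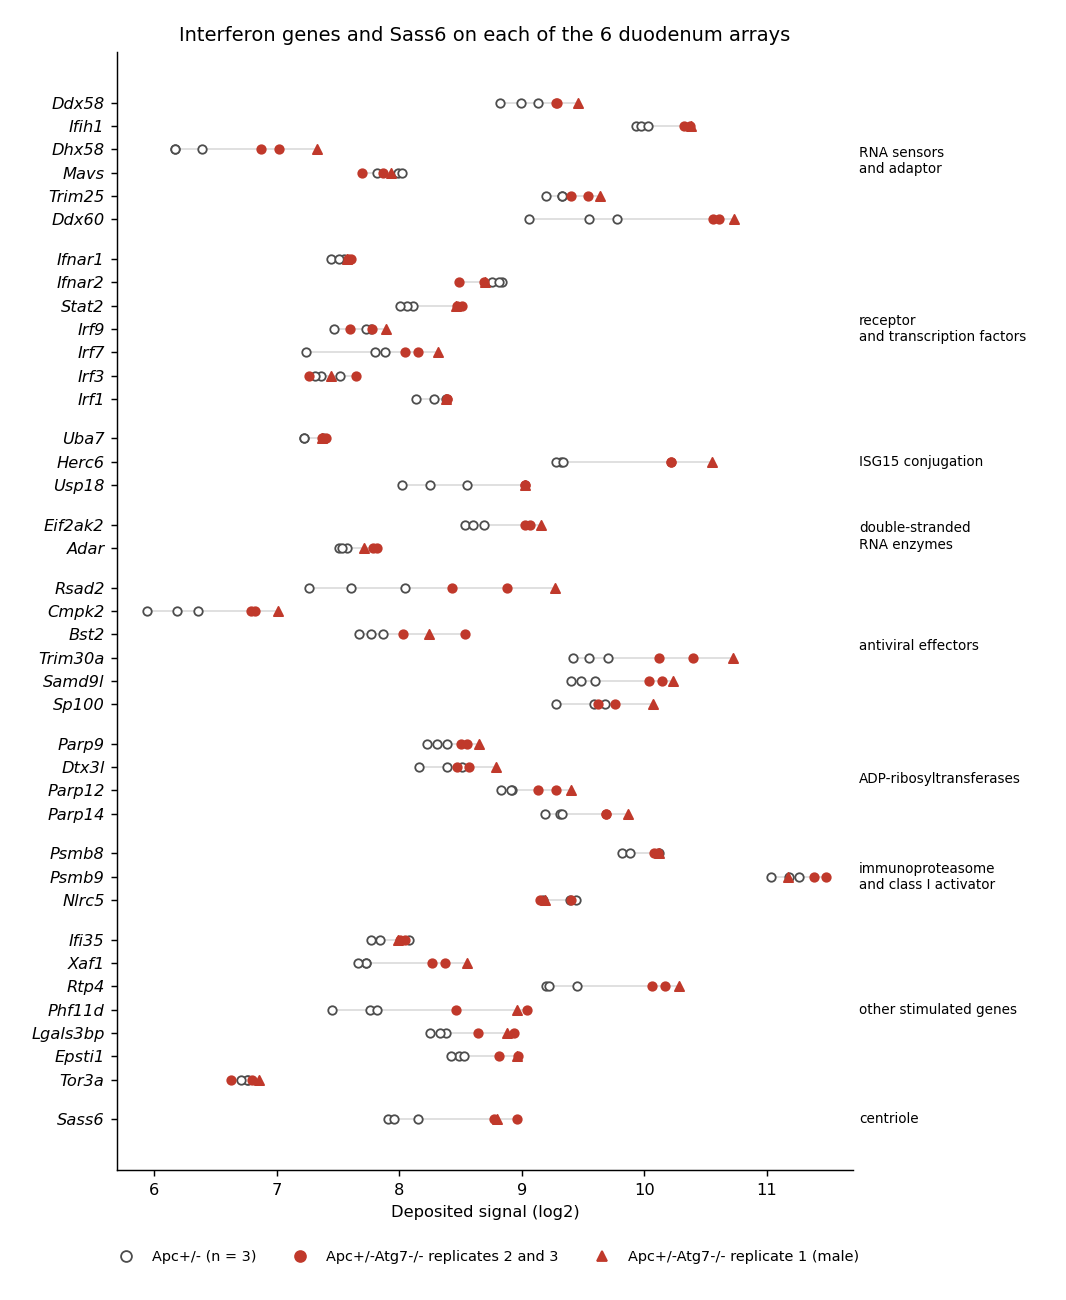
Deposited signal (x axis, log2) of each of the 38 interferon genes and Sass6 on the 6 arrays, grouped by role, with Apc+/- arrays as open circles, Apc+/-Atg7-/- replicates 2 and 3 as filled circles and the male Apc+/-Atg7-/- replicate 1 as a triangle. The filled symbols lie to the right of all open ones for 27 genes, and the triangle is the highest of the 3 Apc+/-Atg7-/- arrays for 24.

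Some member promoters hold a sequence that interferon factors bind. The interferon-stimulated response element contains GAAANNGAAA, which was searched on both strands from 250 bases before to 50 after each start in the RefSeq promoter table (GRCm38.p6). It was present in 9 of 38 promoters (23.7%) of the 32 measured members that the table lists, and in 3.44% of all 32851 promoters. Within the 250 bases before the start it was present in 13.2% of member promoters and in 2.98% of all. By gene, 8 of the 32 had a match, namely Ifih1, Ddx58, Trim30a, Ddx60, Bst2, Stat2, Rsad2 and Eif2ak2. Of the 5 genes that rose and are in the table, Ddx60 had a match, and Herc6, Xaf1, Phf11d and Sass6 had none in this window. TTCNNNGAA, a core that Stat proteins bind, was present in 23.7% of member promoters and 8.3% of all. Dhx58, Usp18, Parp9, Parp14, Nlrc5, Rtp4 and Tor3a have no entry in the table. Alternative starts of a gene can have overlapping windows, and a match is a run of letters, not a measured binding site.

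The stretches below end at the base before the start, read 5′ to 3′ in the direction of the gene, and carry GAAANNGAAA matches in capitals. They are Ddx60, which rose, the effectors Bst2, Rsad2 and Trim30a, whose arrays did not overlap between genotypes, and Sass6, as one of those that rose without a match. Ddx60 has its matches at -53 and -19 from the start, Bst2 has a pair at -130 and -124 that overlap each other and a TTCNNNGAA match at -136, and Rsad2 and Trim30a have reverse-strand matches at -120 and -36.
Ddx60, chr8:61927987-61928086, + strand: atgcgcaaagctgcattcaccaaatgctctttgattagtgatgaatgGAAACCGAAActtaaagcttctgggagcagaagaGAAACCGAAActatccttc
Bst2, chr8:71537473-71537622, - strand: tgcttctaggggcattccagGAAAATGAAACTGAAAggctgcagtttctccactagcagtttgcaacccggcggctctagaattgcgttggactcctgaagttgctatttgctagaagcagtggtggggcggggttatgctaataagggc
Rsad2, chr12:26456453-26456602, - strand: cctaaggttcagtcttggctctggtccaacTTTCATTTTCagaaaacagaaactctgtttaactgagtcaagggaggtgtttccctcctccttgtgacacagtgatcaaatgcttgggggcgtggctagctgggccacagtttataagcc
Trim30a, chr7:104465194-104465293, - strand: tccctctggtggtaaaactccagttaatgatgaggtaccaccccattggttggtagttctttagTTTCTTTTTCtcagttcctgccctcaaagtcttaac
Sass6, chr3:116594858-116594957, + strand: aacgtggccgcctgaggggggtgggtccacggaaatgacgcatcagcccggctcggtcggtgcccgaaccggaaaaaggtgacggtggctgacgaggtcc

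Among the RNA sensors and their adaptor, Ddx60 rose and the cytosolic receptors were higher without passing. Ddx60 is an interferon-inducible helicase linked to RIG-I signalling, and it carries the paired matches printed above. It read 9.55, 9.78 and 9.06 in Apc+/- replicates 1 to 3 and 10.73, 10.61 and 10.56 in Apc+/-Atg7-/- replicates 1 to 3. The Apc+/- arrays were widely spread (SD 0.37) and the Apc+/-Atg7-/- arrays lay close together above them (SD 0.09). The difference was 1.17 (SE 0.16, adjusted p = 0.0352), a 2.25-fold change, and 1.12 without the male array.

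Dhx58 encodes LGP2, the RIG-I-like receptor that lacks a signalling domain. It read 6.17, 6.39 and 6.17 in Apc+/- and 7.33, 6.87 and 7.02 in Apc+/-Atg7-/- arrays, with the genotypes apart and a difference of 0.83 (SE 0.13, adjusted p = 0.0615). It passed without Apc+/-Atg7-/- replicate 2 (0.93, adjusted p = 0.0493), after a further quantile normalization (0.0431) and with trend and robust moderation (0.0293). Ddx58, which encodes RIG-I, differed by 0.37 (SE 0.11, adjusted p = 0.703), and Ifih1, which encodes MDA5, by 0.38 (SE 0.08, adjusted p = 0.32). In both the arrays of the genotypes were apart, by 0.15 and 0.29 at the closest. Trim25, a ubiquitin ligase of RIG-I signalling, differed by 0.24 (SE 0.10, adjusted p = 0.933). Mavs, the adaptor downstream of these receptors, read 7.99, 8.02 and 7.82 in Apc+/- and 7.93, 7.87 and 7.70 in Apc+/-Atg7-/- arrays. Its arrays overlapped, and its difference of -0.11 had a 95% interval from -0.34 to 0.11.

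No gene of the receptor and its transcription factors passed by limma. At an unadjusted p under 0.05 Stat2 and Irf7 were the 2 of 7 that were higher, against 2.38% of all genes. Stat2, the subunit particular to the type I and III interferon factor, read 8.11, 8.06 and 8.01 in Apc+/- and 8.46, 8.47 and 8.51 in Apc+/-Atg7-/- arrays. The arrays of each genotype lay close together and the genotypes were apart, with a difference of 0.42 (SE 0.08, adjusted p = 0.226). Irf7, the factor that amplifies interferon transcription, read 7.88, 7.80 and 7.24 against 8.32, 8.15 and 8.05, with Apc+/- replicate 3 the lowest. Its difference was 0.53 (SE 0.16, adjusted p = 0.774), and 0.33 without Apc+/- replicate 3.

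The receptor chains and the other factors had small differences. Ifnar1 read 7.55, 7.44 and 7.51 in Apc+/- and 7.57, 7.58 and 7.61 in Apc+/-Atg7-/- arrays, apart by only 0.02, with a difference of 0.09 (95% interval -0.10 to 0.28). Ifnar2 read 8.76, 8.84 and 8.81 against 8.70, 8.69 and 8.49. It was the one member lower on every Apc+/-Atg7-/- array, by -0.18 (95% interval -0.39 to 0.03, adjusted p = 0.95). Irf3, which is activated by phosphorylation rather than by synthesis, read 7.36, 7.31 and 7.52 against 7.44, 7.65 and 7.26. Its arrays overlapped (difference 0.05, 95% interval -0.20 to 0.31, and -0.05 without Apc+/-Atg7-/- replicate 2). Irf9, the DNA-binding partner of Stat2, differed by 0.10 (SE 0.11), and Irf1, a factor of the interferon gamma response, by 0.12 (SE 0.09). Both intervals include 0. Irf1 is 1 of the 27 members counted as apart, by a gap that rounds to 0.0. Its other, dimmer probe set read 7.87, 7.79 and 7.84 in Apc+/- and 7.98, 7.96 and 7.90 in Apc+/-Atg7-/- arrays.

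Genes that attach and remove the ubiquitin-like protein ISG15 were led by Herc6. Herc6 is the ligase that joins mouse ISG15 to its targets. It read 9.32, 9.28 and 9.34 in Apc+/- and 10.55, 10.22 and 10.22 in Apc+/-Atg7-/- arrays, a gap of 0.88 between the nearest arrays. Its difference of 1.02 (SE 0.11, adjusted p = 0.00944) is 2.02-fold and the smallest adjusted p among the 39 genes. It stayed past 0.05 in 4 of the 6 fits that left out 1 array, and its adjusted p was 0.0517 when the male array and 0.0508 when Apc+/- replicate 2 was left out.

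Usp18, which removes ISG15 and also restrains the Ifnar2 receptor chain, read 8.25, 8.55 and 8.02 in Apc+/- arrays. It read 9.03 on each Apc+/-Atg7-/- array. The genotypes were apart, and the difference of 0.76 (SE 0.13) did not pass (adjusted p = 0.112), though it did without Apc+/- replicate 2 (adjusted p = 0.0371) and with trend and robust moderation (0.0345). Uba7, the activating enzyme for ISG15, differed by 0.11 (95% interval -0.09 to 0.30) and its arrays overlapped.

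Both enzymes that act on double-stranded RNA had the genotypes apart, against 4.81% of all genes in that direction. Eif2ak2 encodes PKR, the kinase that halts translation when it binds double-stranded RNA. It read 8.69, 8.54 and 8.60 in Apc+/- and 9.16, 9.07 and 9.03 in Apc+/-Atg7-/- arrays, a difference of 0.48 (SE 0.09, adjusted p = 0.167). Adar, which edits adenosine to inosine in double-stranded RNA, read 7.51, 7.57 and 7.53 against 7.71, 7.82 and 7.79, a difference of 0.24 (SE 0.08, adjusted p = 0.868).

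Antiviral effectors had a median difference of 0.68 over 6 genes. In 5 the genotypes were apart, against 4.81% of all genes, and 5 were higher at an unadjusted p under 0.05, against 2.38%. By limma 0 of the 6 passed over all genes. Samd9l, a restriction factor, came closest. It read 9.40, 9.60 and 9.48 in Apc+/- and 10.23, 10.04 and 10.14 in Apc+/-Atg7-/- arrays, a difference of 0.64 (SE 0.10, adjusted p = 0.0546). Samd9l passed under 4 other settings, at adjusted p from 0.00861 to 0.0449 (arrays centred, trend and robust moderation, array weights, dim genes removed). Cmpk2, a mitochondrial nucleotide kinase, read 6.36, 6.19 and 5.94 against 7.01, 6.79 and 6.82 (difference 0.71, SE 0.12, adjusted p = 0.112). Cmpk2 passed with array weights (adjusted p = 0.0353). Cmpk2 and Rsad2 are direct neighbours in the RefSeq gene order, and both had Apc+/- replicate 3 as the lowest array and the male array as the highest.

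Rsad2 encodes viperin, an enzyme that makes a chain-terminating nucleotide. It had the largest difference of the 39 genes, from 7.64 ± 0.40 to 8.86 ± 0.42 (SD, n = 3), which is 2.33-fold. Its spread was also the widest, so the difference of 1.22 (SE 0.23) did not pass (adjusted p = 0.167) and was 1.02 without the male array. Trim30a, a tripartite motif protein with close paralogs that an array can mix, differed by 0.86 (SE 0.15, adjusted p = 0.118), and passed without Apc+/-Atg7-/- replicate 2 (1.01, adjusted p = 0.0415). Bst2, the tetherin that holds budding virions at the membrane, differed by 0.50 (SE 0.13, adjusted p = 0.565). Sp100, a nuclear body protein, differed by 0.30 (SE 0.14) with overlapping arrays, and by 0.17 without the male array.

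**Figure D3:**
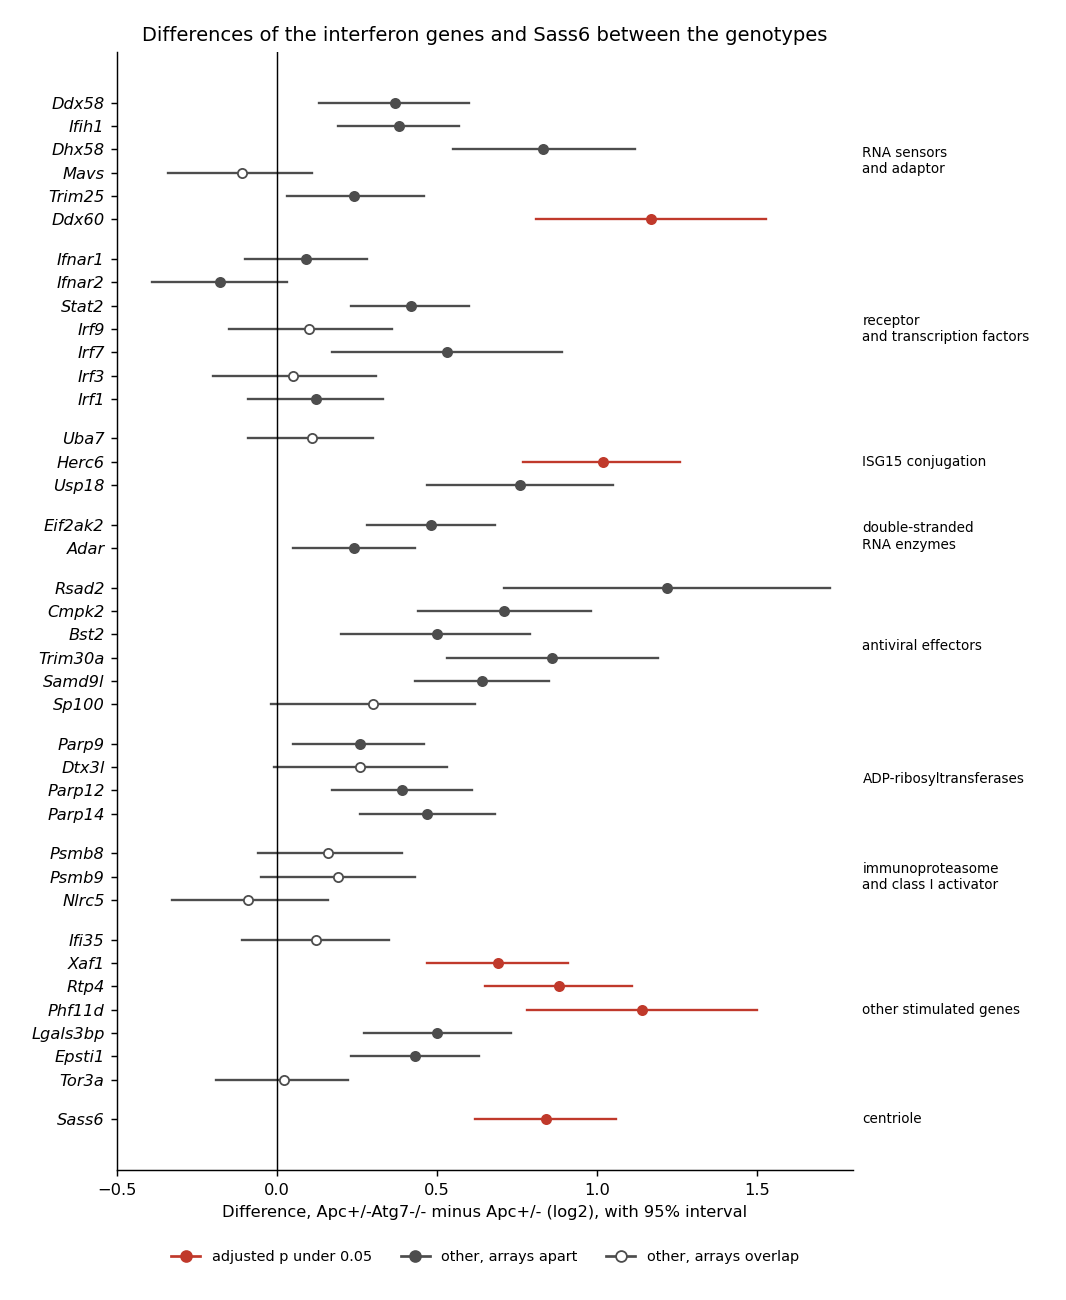
Difference between the genotypes for each gene (x axis, Apc+/-Atg7-/- minus Apc+/-, log2) with limma's 95% interval, in red for the 6 genes past an adjusted p of 0.05, and otherwise filled where the arrays of the genotypes were apart and open where they overlapped. Intervals of the effectors lie right of 0 except that of Sp100, and those of Mavs, both receptor chains, Irf3 and the immunoproteasome genes span 0.

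The ADP-ribosyltransferases and their partner were higher by similar amounts, with differences from 0.26 to 0.47. By limma 0 of 4 passed, and 3 were higher at an unadjusted p under 0.05, against 2.38% of all genes. Parp14 read 9.31, 9.19 and 9.33 in Apc+/- and 9.87, 9.69 and 9.69 in Apc+/-Atg7-/- arrays, a difference of 0.47 (SE 0.09, adjusted p = 0.226). Parp12, which acts against several RNA viruses, read 8.92, 8.91 and 8.83 against 9.40, 9.13 and 9.28, a difference of 0.39 (SE 0.10, adjusted p = 0.5). In both the genotypes were apart. Parp9 and the ubiquitin ligase Dtx3l form a complex and stand side by side in the genome with Parp14 as the next gene. They differed by 0.26 each (SE 0.09 and 0.12), and only the arrays of Dtx3l overlapped.

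Genes of antigen processing in the set did not pass (0 of 3 by limma, and 0 at an unadjusted p under 0.05). None of the 3 had the genotypes apart on the probe set that stood for it. Psmb9, a catalytic subunit that replaces its constitutive counterpart in the immunoproteasome, read 11.26, 11.18 and 11.03 in Apc+/- and 11.17, 11.38 and 11.48 in Apc+/-Atg7-/- arrays. Its difference was 0.19 (95% interval -0.05 to 0.43). Psmb8, a second such subunit, read 10.12, 9.82 and 9.88 against 10.12, 10.11 and 10.08, a difference of 0.16 (95% interval -0.06 to 0.39). Nlrc5, the activator of MHC class I genes, is covered by 19 probe sets, and the brightest differed by -0.09 (SE 0.11). Those 19 did not move alike, since 15 were higher and 4 lower, between -0.14 and 0.57, with a median of 0.21. Of the 19, 7 had the genotypes apart with Apc+/-Atg7-/- higher and 0 with it lower, where 4.81% of all genes were apart higher. The mean of the 19 differed by 0.19 (adjusted p = 0.953).

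Of the other stimulated genes, Rtp4, Phf11d and Xaf1 rose. Rtp4, a chaperone of G protein-coupled receptors, read 9.20, 9.45 and 9.22 in Apc+/- and 10.28, 10.06 and 10.17 in Apc+/-Atg7-/- arrays. The nearest arrays of the genotypes were 0.61 apart, and the difference was 0.88 (SE 0.10, adjusted p = 0.0137), 1.84-fold. Phf11d, a PHD finger gene with close paralogs that an array can mix, read 7.76, 7.82 and 7.45 against 8.96, 8.46 and 9.04. Apc+/-Atg7-/- replicate 2 was the lowest of its genotype, and the difference of 1.14 (SE 0.16, adjusted p = 0.0366) was 1.32 without it.

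Xaf1, which antagonises an inhibitor of apoptosis, read 7.73, 7.73 and 7.66 in Apc+/- and 8.55, 8.37 and 8.27 in Apc+/-Atg7-/- arrays. Apc+/- arrays lay close together (SD 0.04), and the difference was 0.69 (SE 0.10, adjusted p = 0.0366). Leaving out any 1 array ended its call, at adjusted p from 0.0695 to 0.201. Rtp4 kept its call without Apc+/- replicate 2 or Apc+/-Atg7-/- replicate 2, Phf11d without Apc+/-Atg7-/- replicate 2, and Ddx60 without Apc+/- replicate 2 or 3. The highest adjusted p in such fits was 0.0803 for Rtp4, 0.172 for Phf11d and 0.17 for Ddx60. Lgals3bp, a secreted glycoprotein, had a difference of 0.50 (SE 0.10, adjusted p = 0.246). Epsti1, an epithelial and stromal interaction gene, had one of 0.43 (SE 0.09, adjusted p = 0.259), and in both the genotypes were apart. Ifi35 (0.12, SE 0.10) and Tor3a (0.02, SE 0.09) had overlapping arrays.

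Sass6, the protein that sets up the cartwheel of a new centriole, rose as well. It read 8.15, 7.91 and 7.96 in Apc+/- and 8.80, 8.77 and 8.96 in Apc+/-Atg7-/- arrays, 0.63 apart at the closest. Its difference was 0.84 (SE 0.10, adjusted p = 0.0137), 1.79-fold, and 0.86 without the male array (adjusted p = 0.0755). It kept its call without Apc+/- replicate 1 or Apc+/-Atg7-/- replicate 2, and its adjusted p without any of the other arrays was at most 0.0805. Of 13 measured proliferation genes 0 passed by limma (10 at an unadjusted p under 0.05, all higher). All 13 had a difference above 0, with a median of 0.33, and 4 had the genotypes apart, all higher. Their mean level ran from 7.78 to 8.15 in Apc+/- and from 8.14 to 8.39 in Apc+/-Atg7-/- arrays. Plk4, Stil and Cep152 are among these 13 genes and act with Sass6 in building centrioles. They differed by 0.36 (SE 0.13), 0.30 (SE 0.14) and 0.03 (SE 0.10). Their part in the value of Sass6 was not tested.

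No gene for an interferon passed. Over 15 measured interferon ligands the differences ran from -0.20 (Ifna12) to 0.16 (Ifne), with a median of -0.04, and 0 reached an unadjusted p of 0.05 by limma. Ifnb1 differed by -0.04 (SE 0.11), Ifnl2 by -0.11 (SE 0.13) and Ifng by 0.04 (SE 0.11). Mean levels of the ligands in Apc+/- ran from 3.89 (Ifna11) to 8.15 (Ifnl2), beside array medians of 6.43 to 6.56. A dim transcript made by few cells can escape an array of whole tissue, which was not tested here.

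Few other genes of the pathway stood out. Of 60 listed, 52 were measured, 0 passed by limma in either direction, and their median difference was 0.01. At an unadjusted p under 0.05, 4 were higher (Samhd1, Zbp1, Aim2 and Tap1) and 1, Jak2, lower. Aim2, a DNA sensor of the inflammasome, had the largest difference of the 52, 0.53 (SE 0.21, adjusted p = 0.933), and its arrays overlapped. It is named here after its values were seen. Samhd1, which depletes nucleotides, read 9.94, 9.95 and 9.84 in Apc+/- and 10.50, 10.25 and 10.33 in Apc+/-Atg7-/- arrays (difference 0.44, SE 0.10, adjusted p = 0.304). Zbp1, a sensor of left-handed nucleic acid, read 8.82, 8.94 and 9.18 against 9.45, 9.37 and 9.58 (difference 0.49, SE 0.11). Both had the genotypes apart. Of the 52 genes, 5 were apart higher (Samhd1, Zbp1, Rnf135, Psmb10 and Psme1), against 4.81% of all genes. Apart lower were 4 (Jak1, Jak2, Stat3 and Ptpn6), against 5.23%. Tap1, a subunit of the peptide transporter, and the immunoproteasome subunit Psmb10 differed by 0.31 (SE 0.11) and 0.18 (SE 0.09). Among kinases and receptors Jak2 (-0.23, SE 0.10) and Ifngr2 (-0.26, SE 0.13) had the smallest p, and among factors and brakes Ptpn6 (-0.18, SE 0.08) and Stat3 (-0.15, SE 0.09).

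**Figure D4:**
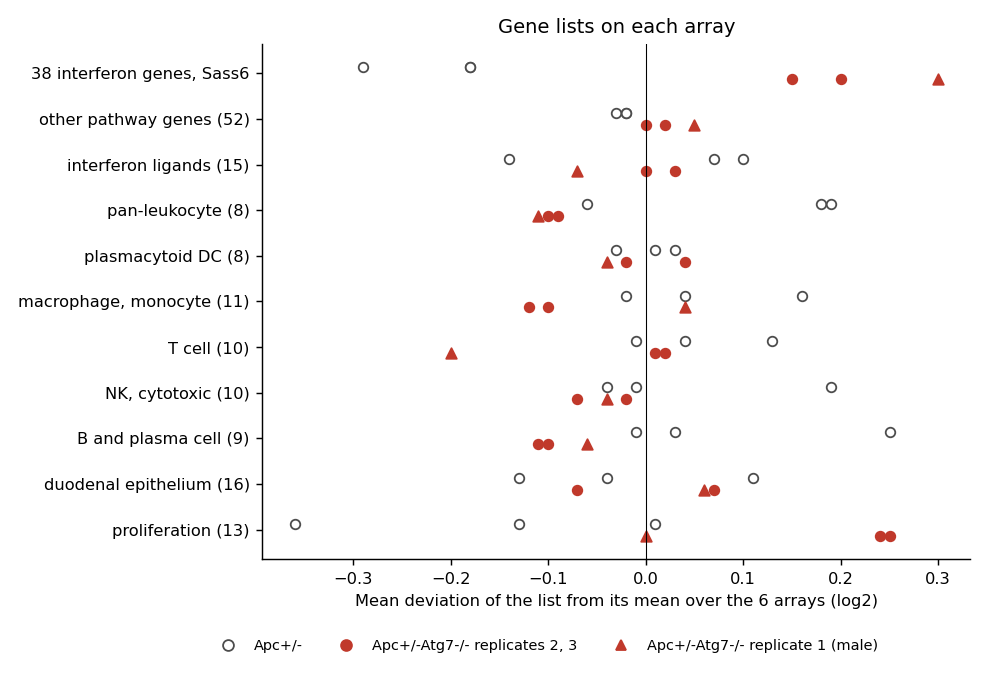
Mean deviation of each gene list from its own mean over the 6 arrays (x axis, log2), with the number of measured genes in brackets, Apc+/- arrays as open circles, Apc+/-Atg7-/- replicates 2 and 3 as filled circles and the male array as a triangle. The 38 interferon genes and Sass6 together lie at -0.29 to -0.18 in Apc+/- and at 0.15 to 0.30 in Apc+/-Atg7-/- arrays, while the pan-leukocyte list is at -0.06 to 0.19 and at -0.11 to -0.09. The proliferation list is at -0.36 to 0.01 in Apc+/- and at 0.25 at the highest in Apc+/-Atg7-/- arrays.

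No gene in the lists of immune cell markers passed by limma. All 8 pan-leukocyte markers were below 0 in difference, with a median of -0.20, and their mean level ran from 8.13 to 8.38 in Apc+/- and from 8.08 to 8.10 in Apc+/-Atg7-/- arrays. Of these 0 passed by limma, and 3 were lower at an unadjusted p under 0.05. Median differences were -0.11 for 11 macrophage and monocyte, -0.13 for 10 T cell, -0.09 for 10 NK and cytotoxic and -0.14 for 9 B and plasma cell markers, and 0 of these passed by limma (2 at an unadjusted p under 0.05, both lower). Conventional dendritic cell (8 genes) and neutrophil markers (10 genes) had medians of -0.04 and 0.01. At an unadjusted p under 0.05 they had 1 (Cd209a, lower) and 0 genes. Among 8 plasmacytoid dendritic cell markers the median was -0.08, with Bst2 higher and Spib lower (-0.26, SE 0.09) at an unadjusted p under 0.05. Bst2, itself an interferon-stimulated gene, was the highest. Siglech, the defining marker of plasmacytoid dendritic cells, differed by -0.16 (SE 0.08). Smooth muscle markers had the lowest median of the cell lists, with all 8 below 0 at a median of -0.37, and 0 passed by limma (1 lower at an unadjusted p under 0.05). Their mean level ran from 8.14 to 8.77 in Apc+/- and from 7.64 to 8.47 in Apc+/-Atg7-/- arrays, with Apc+/-Atg7-/- replicate 2 the lowest, and their part in the interferon values was not tested. In RNA from whole duodenum, more cells of a type and more transcript per cell cannot be told apart, so the cells that carried the interferon transcripts are not identified by these values.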

How the data were processed

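Total RNA extracted with Trizol was labelled with the Affymetrix whole-transcript kit, 1 array per sample, per the labels' protocols. The authors deposited 1 log2 value per probe set and array, made with RMA and Partek, per the submitters' processing notes, which state neither version nor setting. The log base was read from the range of the values (2.4 to 13.3). Such normalization equalises arrays and compresses differences of dim and very bright transcripts. No depth applies to array signals, and 3 arrays per genotype limit the precision. Gene names came from GEO's platform annotation, in which 21789 of 28853 probe sets have 1 symbol, and 19855 of 19938 genes were found in RefSeq (GRCm38.p6) by gene identifier.

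The comparison used R 4.3.3 and limma 3.58.1 (two-sided eBayes after lmFit, no covariates, 9.7 moderated degrees of freedom), with Benjamini-Hochberg adjustment over 19938 genes. Since no label ties an array to an animal, the p-values reflect only how far these samples vary, which may in part be technical variation. By its Xist signal the male array came from another animal or pool than the rest. Whether the rest came from different animals is not stated by the labels. With 3 arrays a side, an exact permutation test reaches 0.1 at the lowest. The script was tested on simulated data. The members, lists and alternatives were chosen with earlier results of these data known. All members are named, and array values are printed for genes past an adjusted p of 0.05, for the 2 of each role with the smallest p, and for Ifnar1, Ifnar2, Irf3, Mavs and Sass6. The alternatives were a replicate block, a further quantile normalization, array centring, trend and robust moderation, array weights, removal of the dimmest 25% of genes, averaging over the probe sets of a gene, a threshold of 0.1, leaving out each array, and for the promoter motif a longer match and a shorter window. Same-numbered arrays deviated together at correlations of 0.15, -0.07 and 0.24, and differently numbered arrays of opposite genotype at -0.31 to 0.18. With so few arrays these values do not settle whether the numbers mark pairs. The labels name no pairs, so the main fit took none and the replicate block was an alternative. Python 3.11.15 and matplotlib 3.10.9 drew the figures.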

Additional observations from a re-analysis of the deposited data

How the results depend on the processing

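Under the alternatives that kept all 6 arrays, limma called 6 to 8 members higher and 0 lower. Over all genes 20 to 44 were called in either direction. The median difference of the members stayed between 0.37 and 0.42, and 26 to 28 members had the genotypes apart. In the main fit 4.81% of all genes were apart in that direction. With the replicate number as a block 8 members passed, the 6 of the report with Rsad2 (adjusted p = 0.0119) and Cmpk2 (0.0325), and 44 genes in all against 22. Phf11d missed the threshold under a further quantile normalization (adjusted p = 0.0556), Xaf1 with arrays centred on their medians (0.0529) and Ddx60 with trend and robust moderation (0.0613), while the other 5 kept their call each time. Samd9l, Dhx58, Usp18 and Cmpk2 gained a call under the settings given beside them. The cause was not tested. At an adjusted p of 0.10, 8 passed. Leaving out 1 array gave between 0 and 6 members (2 to 27 of all genes in either direction), medians of 0.36 to 0.42 and 27 to 31 members apart, against 7.25% to 10.4% of all genes in those fits. Single values turned direction for Nlrc5 as the mean of its probe sets (0.19), for Irf3 without Apc+/-Atg7-/- replicate 2 and for Tor3a without Apc+/- replicate 3, Apc+/-Atg7-/- replicate 1 or replicate 3, none of which passed. Over the fits without 1 array Irf3 ran from -0.05 to 0.15 and Tor3a from -0.03 to 0.08. The other pathway genes stayed at 0 calls by limma in each fit. With G before and CT after the GAAANNGAAA match, 3 of 38 member promoters (7.89%), those of Ddx58, Ddx60 and Bst2, and 0.116% of all held it.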

Other observations

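The genes beside the 6 that rose, in the RefSeq order of protein-coding genes, were read after the values of those 6 were known. Sass6 lies between Trmt13, a transfer RNA methyltransferase gene, and Mfsd14a. These differed by 0.06 (SE 0.10) and 0.17 (SE 0.09), against 0.84 for Sass6. Herc6 lies between Ppm1k (0.18, SE 0.09) and Pyurf (-0.02, SE 0.09), and Xaf1 between Slc13a5 (0.02, SE 0.13) and Fbxo39 (0.08, SE 0.09). Rtp4 lies beside Masp1 (-0.07, SE 0.15) and Sst (-0.20, SE 0.12), and Ddx60 beside Palld (0.15, SE 0.08) and Anxa10 (0.58, SE 0.39). The neighbours of Phf11d were not measured. None of the measured neighbours passed by limma or reached an unadjusted p of 0.05.

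The male array was the highest of the 3 Apc+/-Atg7-/- arrays for 24 of the 39 genes (61.5%, against 29.1% of all genes), replicate 3 for 10 and replicate 2 for 5. Among Apc+/- arrays replicate 3 was the lowest for 18 genes (46.2%, against 26.1% of all genes), replicate 1 for 11 and replicate 2 for 10. These shares were not tested. The male array was the only one of its sex, so sex and animal cannot be told apart there.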
